A study of Mus musculus with 6 samples.

Results

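The carnitine shuttle, mitochondrial beta-oxidation and ketone genes are 37 named genes, and each of the 37 symbols was found among the 23399 rows of the count table by exact match. Polyadenylated RNA was sequenced from wildtype cells of CMT93, an established line from a mouse colorectal carcinoma that was cultured as spheroids on soft agar with a little Matrigel. Palmitate, a saturated long-chain fatty acid, was given bound to bovine serum albumin from an ethanol stock at 200 µM in 3 samples, and 3 vehicle samples received ethanol and albumin without it. Each agent was present for 1 week in monolayer and then for 5 days in spheroid culture. All values come from 1 cell line. The labels do not state that samples were separate cultures, so p-values measure only how far these libraries scatter, possibly for technical reasons. In bulk RNA, fewer cells of a type and less RNA per cell cannot be told apart.

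Long-chain fatty acids cross into mitochondria as carnitine esters: CPT1 on the outer membrane makes the ester, a carrier moves it inward, and CPT2 makes the CoA ester again. Each turn of beta-oxidation then runs through a dehydrogenase, a hydratase, a second dehydrogenase and a thiolase, with separate enzymes for long, medium and short chains. Electrons leave through the flavoproteins ETF and ETF dehydrogenase to ubiquinone. Amino acids with branched chains and odd-chain fatty acids feed related enzymes, and colon epithelium is known for oxidising short-chain fatty acids.

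The promoters of 4 acyl chain genes are shown because they include 3 members with large rises, Cpt1a, Acadvl and Acadl, beside Acadm, which fell slightly. Each line holds 230 bases, from 250 to 21 bases before the RefSeq gene start in mouse build GRCm38.p6, on the gene's own strand, with capitals marking a GC box, GGGCGG or its reverse complement. The Cpt1a stretch is chr19:3323051-3323280 (plus strand), that of Acadvl chr11:70015449-70015678 (minus strand), that of Acadl chr1:66863330-66863559 (minus strand) and that of Acadm chr3:153944664-153944893 (minus strand), and none overlaps an exon of Gencode vM21.
Cpt1a: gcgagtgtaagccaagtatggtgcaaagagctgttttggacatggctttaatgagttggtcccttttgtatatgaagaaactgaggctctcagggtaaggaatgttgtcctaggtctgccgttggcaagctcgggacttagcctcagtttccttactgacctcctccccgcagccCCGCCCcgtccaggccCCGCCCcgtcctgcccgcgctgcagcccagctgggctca
Acadvl: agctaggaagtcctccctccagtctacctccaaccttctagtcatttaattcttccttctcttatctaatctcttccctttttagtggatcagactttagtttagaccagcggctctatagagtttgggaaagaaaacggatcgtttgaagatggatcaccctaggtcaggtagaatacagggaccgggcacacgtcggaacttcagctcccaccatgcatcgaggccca
Acadl: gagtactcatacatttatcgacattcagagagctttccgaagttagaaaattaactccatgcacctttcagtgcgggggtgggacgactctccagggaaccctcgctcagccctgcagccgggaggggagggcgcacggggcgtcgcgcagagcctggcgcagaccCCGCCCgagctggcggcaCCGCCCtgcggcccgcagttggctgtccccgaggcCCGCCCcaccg
Acadm: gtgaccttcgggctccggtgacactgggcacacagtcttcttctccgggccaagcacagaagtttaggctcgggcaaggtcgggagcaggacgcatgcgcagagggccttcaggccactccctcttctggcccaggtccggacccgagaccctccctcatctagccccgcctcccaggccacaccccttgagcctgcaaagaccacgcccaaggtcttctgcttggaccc

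The Cpt1a stretch holds 2 GC boxes and that of Acadl 3, while those of Acadvl and Acadm hold 0. Their GC contents are 57.8%, 66.1%, 47.4% and 64.8%, in the order Cpt1a, Acadl, Acadvl and Acadm. A promoter was matched in RefSeq for 31 of the 37 members, with 33 windows in all. Within the 250 bases before the start, 57.6% of the members' windows held a GC box, against 32.74% of the 32851 windows of all genes. The windows of all genes were not limited to genes expressed here, and this difference was not tested. The direct repeat bound by peroxisome proliferator-activated receptors, AGGNCANAGGNCA on either strand, was in 0 of the 33 windows and in 0.34% of all windows. The element of estrogen-related receptors, TCAAGGTCA on either strand, was in 0 of the 33 and in 0.39% of all. Patterns this rare are seldom met in 33 windows, so the counts of 0 do not show that the members lack such elements. These letters are a description of the windows, and binding was not measured.

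Libraries held 18.9 to 22.9 M counts, and each palmitate library was deeper than each vehicle library. Of 10 markers of colorectal epithelium 9 were in the table, and their summed level was 7280 to 7360 CPM (counts scaled for library size) with vehicle and 6660 to 6760 CPM with palmitate, although Krt20 was under 0.5 CPM. Most of this sum came from Cdh1, Krt8, Krt18 and Krt19, while Vil1 and Cdx2 were at only 15.7 and 1.72 CPM with vehicle. Krt8, Krt18 and, slightly, Cdh1 were called lower with palmitate, while Krt19 and Cdx2 were called higher. The sum of 3 immune markers in the table, of 6, ran over 0.910 to 1.16 CPM with vehicle and 0.484 to 0.671 CPM with palmitate. That of 3 of 6 fibroblast markers ran over 1.339 to 2.05 and 0.887 to 1.01 CPM, and that of 5 endothelial markers over 3.28 to 3.74 and 2.22 to 2.69 CPM. These sums were low throughout, and each was lower in every palmitate library than in any vehicle library. The falls came mostly from Ptprc (mean 0.836 to 0.266 CPM), Col1a1 (1.448 to 0.71 CPM) and Cdh5 (2.205 to 1.449 CPM). Other genes of these lists, Csf1r, Lyz2, Dcn, Pecam1 and Vwf, had slightly higher means with palmitate, all under 0.5 CPM. Sums of hepatocyte (4 of 5) and of muscle or brown fat markers (2 of 5) overlapped between the groups and were at or below 0.940 CPM. None of these genes was at 0 in all 6 libraries. The single adipocyte marker, Fabp4, was at 3.32 to 4.34 CPM with vehicle and 0.799 to 1.14 CPM with palmitate. The neuronal pair was at 88.5 to 97.3 CPM with vehicle and 47.8 to 49.2 CPM with palmitate, nearly all of it Snap25, with Syt1 at 0.636 and 0.267 CPM. The part of these markers in the results below was not tested.

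Palmitate spheroids had more message for the gate of mitochondrial fatty acid entry, Cpt1a, for the dehydrogenases of long chains, Acadvl and Acadl, for the thiolase Acaa2, for the ETF dehydrogenase Etfdh and for the inner membrane carrier Ucp2. These 6 members rose by 0.39 to 0.65 on the log2 scale. Of all 34 tested members 5 were called higher with a rise of at least 0.5, as were 4.83% of all tested genes. The subunits of the long-chain trifunctional protein, Hadha and Hadhb, and the short-chain genes Acads and Hadh did not pass the test, and the medium-chain dehydrogenase Acadm fell slightly. Acad9, a dehydrogenase also grouped here with long chains, fell by 0.20 on the log2 scale. The largest fall was in Pcca, a subunit of propionyl-CoA carboxylase.

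Of the 37 members, 34 passed the filter on low counts and 3 did not. With palmitate 14 of the 34 were higher, 8 lower and 12 not past an adjusted p of 0.05 (edgeR quasi-likelihood test, two-sided). Among all 14987 tested genes 27.4% were called higher and 25.4% lower, 52.8% in all. The members' shares were 41.2% higher and 23.5% lower. Their median log2 fold change was -0.0034, and that of all tested genes was 0.0007. Against a minimum change of 1.2-fold (glmTreat of edgeR), 6 members were higher and 1, Pcca, was lower, where the shares among all tested genes were 6.46% and 8.72%. DESeq2 called 11 members higher and 5 lower, against 20.6% and 18.7% of all tested genes (39.4% in all). The authors' deposited table, also from DESeq2 but over all its genes, has a q-value under 0.05 for 10 members higher and 4 lower, against 13.3% and 10.9% of its genes and 24.2% in either direction, and 13 members were called in both.

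**Figure D1:**
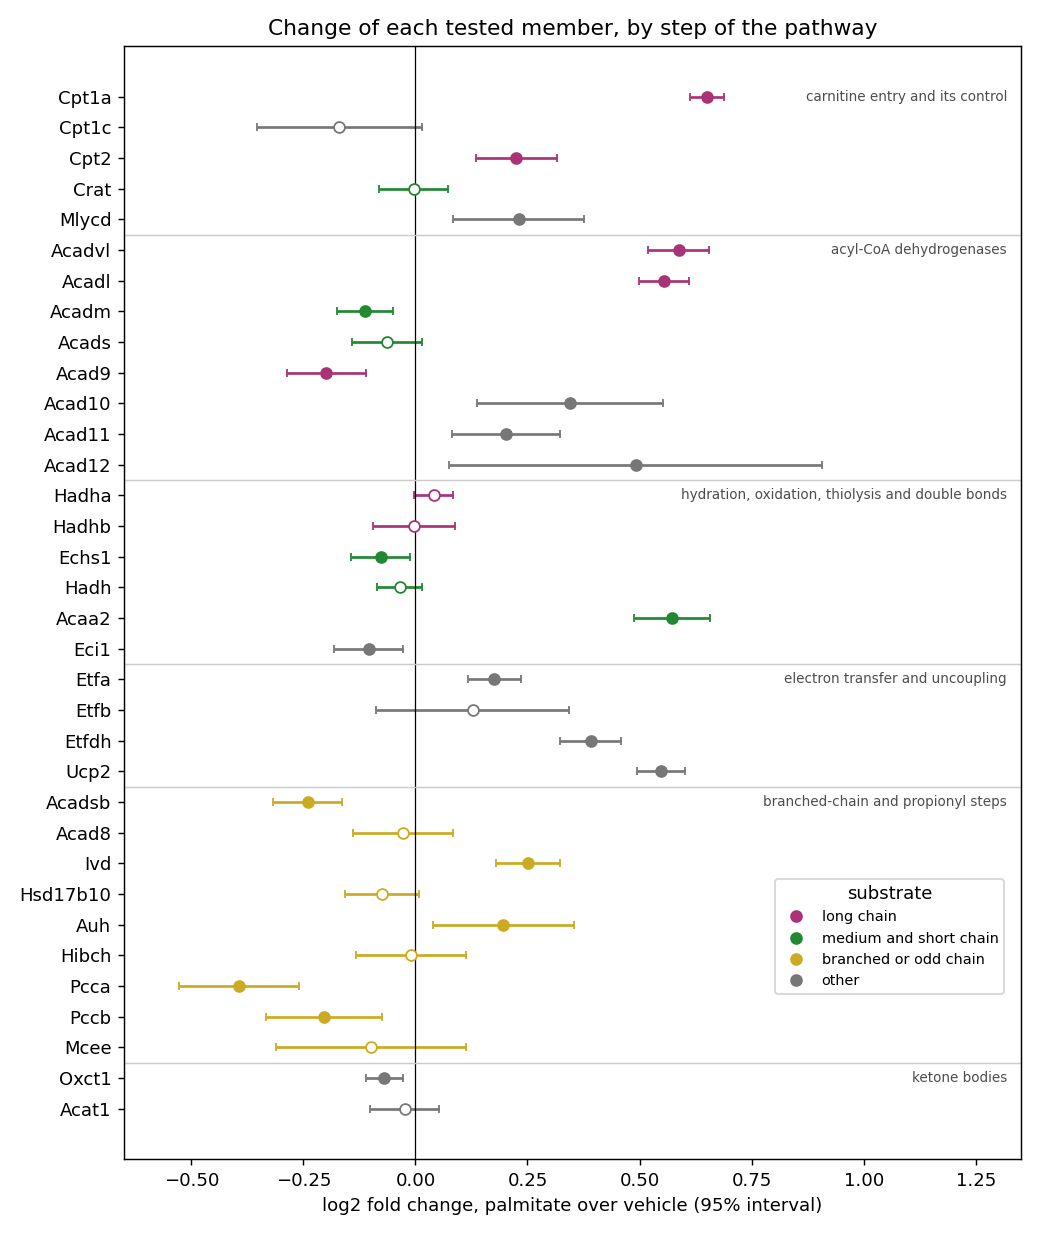
Log2 fold change of the 34 tested members, palmitate over vehicle, on the horizontal axis, with genes in order of the pathway's steps, bars for the 95% interval, colour for the length of the substrate's chain and filled points for an adjusted p under 0.05. The long-chain members Cpt1a, Acadvl and Acadl lie between 0.55 and 0.66, with Cpt2 at 0.23, Hadha and Hadhb close to 0 and Acad9 at -0.20.

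At the carnitine step 3 of 5 tested members rose and 0 fell, with a median log2 fold change of 0.23. These shares, 60% and 0%, stand beside 27.4% and 25.4% of all tested genes. Cpt1a (ENSMUSG00000024900.6), the liver form of CPT1 and the rate-controlling step of long-chain oxidation, stood at 222, 215 and 217 CPM with vehicle and 341, 345 and 340.3 CPM with palmitate. All palmitate libraries lay far above all vehicle libraries, a lack of overlap seen upward in 29.7% and downward in 28.1% of tested genes. The log2 fold change was 0.65 (SE 0.0193, adjusted p = 1.63e-47, edgeR). Cpt2 (ENSMUSG00000028607.17), which returns the acyl group to CoA inside, was at 29.2, 29.8 and 30.0 CPM with vehicle and at 35.6, 33.9 and 34.5 CPM with palmitate. Its groups did not overlap either, but its change was smaller, with a log2 fold change of 0.23 (95% interval 0.13 to 0.32, adjusted p = 1.81e-05, edgeR).

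The other CPT1 forms were low. Cpt1c, the form of neurons, was at 7.85, 7.92 and 7.80 CPM with vehicle and 6.80, 7.14 and 7.002 CPM with palmitate. Its palmitate libraries all lay below its vehicle libraries, and its log2 fold change of -0.17 did not pass the test (adjusted p = 0.119, edgeR). Cpt1b, the muscle form, was not tested, with 4, 9 and 4 counts with vehicle and 4 in each palmitate library. The summed counts of Cpt1b, 17 and 12, give a ratio of 0.654 (95% exact interval 0.285 to 1.45, counting error only). Of the stretches of 50 bases in its main transcript in Gencode vM21, 93.01% also lie in other genes, most often in one whose exons overlap it on the same strand, so its count is uncertain.

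Mlycd, which breaks down malonyl-CoA, the inhibitor of CPT1, rose by 0.23 on the log2 scale from 11.04 ± 0.492 to 13.0 ± 0.531 CPM (SD, n = 3 libraries each). Its call was not made by DESeq2 (adjusted p = 0.0664). Crat, the acetyl carnitine transferase, had 47.3 ± 0.571 CPM with vehicle and 47.2 ± 0.952 CPM with palmitate (SD, n = 3 libraries each). The 95% interval of its log2 fold change ran from -0.08 to 0.07.

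Among acyl-CoA dehydrogenases, which open each turn of the cycle, 5 of 8 tested members rose and 2 fell. That is 62.5% and 25%, beside 27.4% and 25.4% of all tested genes. Acadvl (ENSMUSG00000018574.15), the very-long-chain enzyme of the inner membrane and the usual entry for palmitoyl-CoA, was at 52.6, 52.2 and 50.1 CPM with vehicle and 76.9, 77.5 and 78.2 CPM with palmitate. Its groups were well apart, and the log2 fold change was 0.59 (SE 0.0340, adjusted p = 2.15e-27, edgeR). Exons of a gene on the opposite strand cover 42.85% of its exon bases in Gencode vM21, and the sources used here do not give the strand setting of the counting. Acadl (ENSMUSG00000026003.6), the long-chain dehydrogenase, was at 80.4, 80.1 and 83.6 CPM with vehicle and at 119.6, 119.4 and 119.8 CPM with palmitate. These values did not overlap, and the log2 fold change was 0.56 (SE 0.0280, adjusted p = 2.68e-31, edgeR).

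Acadm (ENSMUSG00000062908.13), the medium-chain dehydrogenase, moved the other way, with 81.8, 79.8 and 80.8 CPM under vehicle and 73.3, 74.8 and 76.1 CPM under palmitate. The groups did not overlap, and the fall was small, by 0.11 on the log2 scale (SE 0.0311, adjusted p = 0.00139, edgeR). Acads, the short-chain dehydrogenase, was at 47.0, 45.4 and 45.2 CPM with vehicle and 43.6, 44.2 and 43.9 CPM with palmitate. All its palmitate values were the lower ones, but the log2 fold change of -0.06 (95% interval -0.14 to 0.02) did not pass the test (adjusted p = 0.179, edgeR). Acad9, which acts on long chains in vitro and is known as an assembly factor of respiratory complex I, fell by 0.20 on the log2 scale, from 39.1 ± 1.02 to 34.0 ± 1.83 CPM (SD, n = 3 libraries each, adjusted p = 7.96e-05, edgeR). It shares 12.88% of its 50-base stretches with other genes.

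The 3 less well studied relatives rose with palmitate. Acad11 rose by 0.20 on the log2 scale, from 16.5 ± 0.529 to 18.99 ± 0.942 CPM (SD, n = 3 libraries each). Acad10 rose by 0.34 and Acad12, at only 1.23 CPM with vehicle, by 0.49. With DESeq2 the calls of Acad10 and Acad11 were narrow (adjusted p = 0.0492 and 0.0499). The authors' deposited table calls none of these 3, with q-values of 0.064 for Acad10, 0.0596 for Acad11 and 0.222 for Acad12. The call of Acad10 was lost without vehicle replicate 2 (adjusted p = 0.064, edgeR), and that of Acad12 with DESeq2 (adjusted p = 0.182), after thinning to equal depth (log2 fold change 0.24, adjusted p = 0.409), with no count filter (adjusted p = 0.0571) and without any vehicle library or palmitate replicate 2 or 3 (adjusted p = 0.0514 to 0.15). These neighbours share 20.41% and 20.69% of the 50-base stretches of their main transcripts, each most often with the other, so their counts are uncertain.

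**Figure D2:**
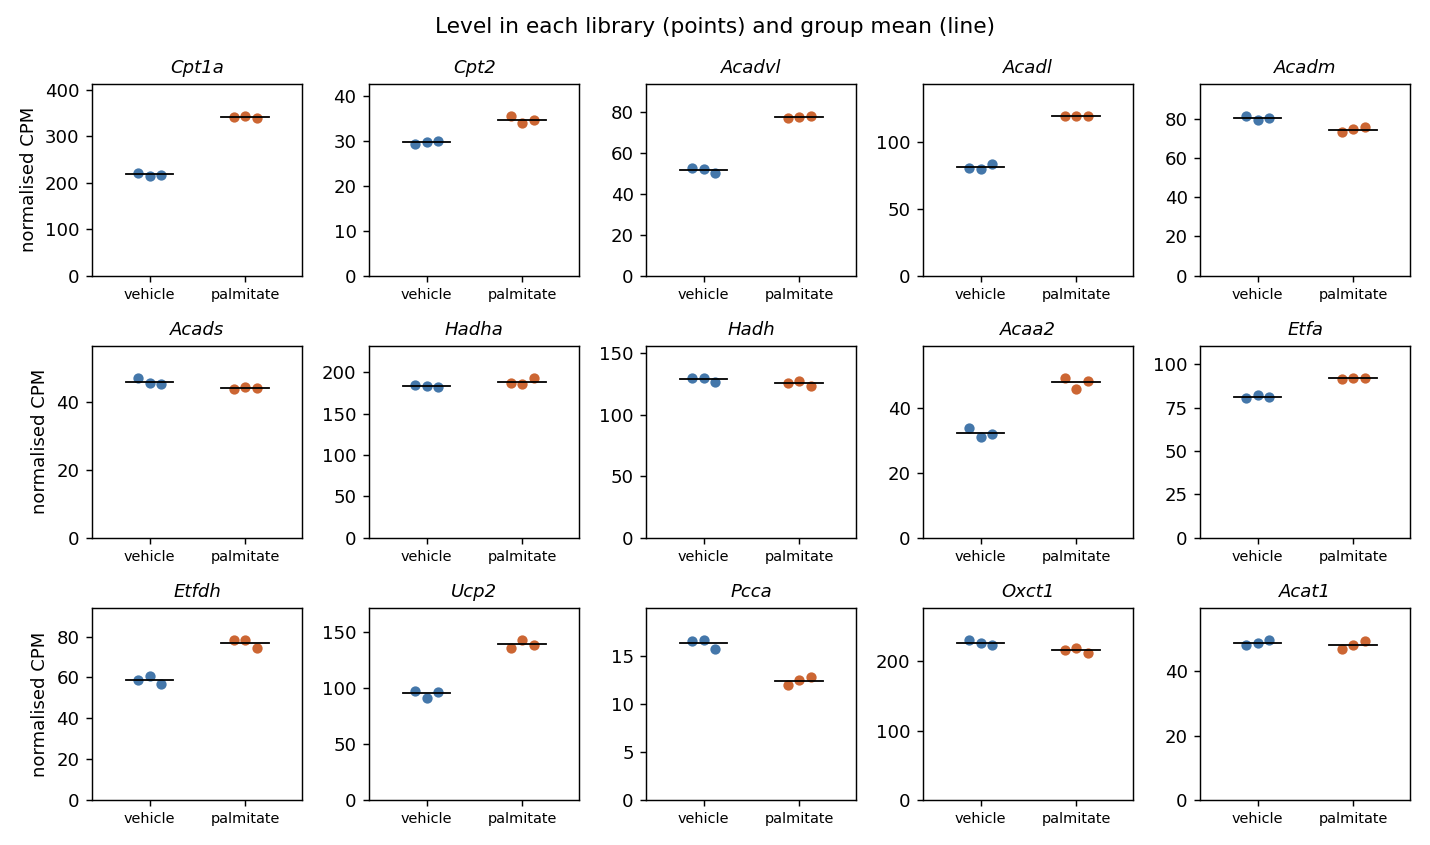
Normalised CPM of 15 members in each library, with points for the 3 vehicle and 3 palmitate libraries, a line for the group mean and an axis from 0 in each panel. Cpt1a, Acadvl, Acadl, Acaa2, Etfdh and Ucp2 have palmitate points well above their vehicle points, and Pcca has them below.

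The trifunctional protein, which carries out the later steps on long chains, had no member past the threshold. Hadha (ENSMUSG00000025745.13), the alpha subunit with long-chain hydratase and hydroxyacyl dehydrogenase activity, was at 184.6, 183.4 and 182.4 CPM with vehicle and 187.3, 185.5 and 193.3 CPM with palmitate. Palmitate values were all slightly higher, yet the log2 fold change of 0.04 (95% interval -0.0025 to 0.08) did not pass the test (adjusted p = 0.109, edgeR). It was called without palmitate replicate 2. Hadhb, the beta subunit with the long-chain thiolase, was at 30.8, 31.9 and 31.6 CPM with vehicle and 31.5, 31.9 and 30.9 CPM with palmitate. Its groups overlapped, and the 95% interval of its log2 fold change was -0.09 to 0.09. The pair is transcribed in opposite directions from starts 272 bases apart in RefSeq. Of the 50-base stretches of Hadhb, 62.38% recur in transcripts of other genes, most often in its pseudogene, which itself had 4 to 16 counts per library, so the level of Hadhb is uncertain.

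Acaa2 (ENSMUSG00000036880.11), the medium-chain thiolase of the matrix, rose, alone among the 6 tested members of the later steps, with 33.8, 31.2 and 32.1 CPM under vehicle and 49.4, 46.0 and 48.6 CPM under palmitate. No value of one group reached those of the other, and the log2 fold change was 0.57 (SE 0.0428, adjusted p = 6.54e-21, edgeR). Hadh, the dehydrogenase of medium and short hydroxyacyl chains, was at 130.2, 129.9 and 126.8 CPM with vehicle and 126.1, 127.5 and 123.9 CPM with palmitate. These ranges overlapped, and the log2 fold change was -0.04 (95% interval -0.08 to 0.01). Echs1, the short-chain hydratase, fell by 0.08 on the log2 scale, a call lost with DESeq2 (adjusted p = 0.145), with no count filter, after thinning, and when any single library other than palmitate replicate 1 was left out (adjusted p = 0.0524 to 0.175).

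Unsaturated chains need further enzymes. Eci1, the isomerase that shifts a double bond, fell by 0.10 on the log2 scale with overlapping groups. That call was lost with DESeq2 (adjusted p = 0.0944) and on leaving out vehicle replicate 2 or either of palmitate replicates 1 and 2 (adjusted p = 0.0516 to 0.127). Decr1, the dienoyl-CoA reductase, was nearly silent, with 1, 4 and 0 counts in the vehicle libraries and 7, 7 and 12 in the palmitate libraries. It did not pass the count filter, and without that filter edgeR called it higher (log2 fold change 2.20, adjusted p = 0.00158). In these libraries 3 counts, the upper limit that a count of 0 allows, correspond to 0.132 to 0.158 CPM. The ratio of its summed counts, 26 over 5, was 4.82 after scaling for depth (95% exact interval 1.82 to 16.1, counting error only). The authors' deposited table gives Decr1 a log2 fold change of 2.28 with a q-value of 0.0428. Of its 50-base stretches 0% were shared with other genes. Outside the member list, and named here after their values were seen, the sister isomerase gene Eci2 rose from 37.8 ± 2.14 to 48.8 ± 2.14 CPM (SD, n = 3 libraries each, log2 fold change 0.37, adjusted p = 2.66e-12, edgeR). The dienoyl-CoA isomerase gene Ech1 rose by 0.09 on the log2 scale (adjusted p = 0.0494, edgeR).

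Of the electron transfer genes and Ucp2, 3 of 4 tested members rose and 0 fell (75% and 0%, beside 27.4% and 25.4% of all tested genes). Etfdh (ENSMUSG00000027809.15), which hands electrons to ubiquinone, was at 58.9, 60.6 and 56.7 CPM with vehicle and 78.2, 78.3 and 74.5 CPM with palmitate. Its groups were apart, with a log2 fold change of 0.39 (SE 0.0338, adjusted p = 1.18e-17, edgeR). Etfa, the alpha subunit of ETF, was at 80.3, 82.4 and 81.1 CPM with vehicle and 91.5, 92.1 and 92.1 CPM with palmitate, a tight but smaller separation with a log2 fold change of 0.18 (SE 0.0294, adjusted p = 2.85e-07, edgeR). Etfb, the beta subunit, was at 5.64, 6.01 and 5.22 CPM with vehicle and 6.94, 6.12 and 5.37 CPM with palmitate. The groups of Etfb overlapped (log2 fold change 0.13, adjusted p = 0.333, edgeR). Its main transcript shares 67.3% of its 50-base stretches with other genes, most often one whose exons overlap it on the same strand, so its low count is uncertain.

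Ucp2 (ENSMUSG00000033685.14), an inner membrane carrier whose message is known to follow fatty acid supply in many tissues, was at 97.3, 91.0 and 96.4 CPM with vehicle and 135.7, 142.5 and 137.7 CPM with palmitate. Every palmitate value was higher, and the log2 fold change was 0.55 (SE 0.0270, adjusted p = 8.88e-32, edgeR).

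Genes for branched-chain amino acids and propionyl-CoA were mixed, with 2 of 9 tested members higher, 3 lower and 4 not past the threshold. These shares, 22.2% and 33.3%, were not far from the 27.4% and 25.4% of all tested genes. Pcca (ENSMUSG00000041650.16), the alpha subunit of propionyl-CoA carboxylase, was at 16.6, 16.7 and 15.7 CPM with vehicle and 11.99, 12.5 and 12.8 CPM with palmitate. Its groups did not overlap, and its level fell by 0.39 on the log2 scale (SE 0.0672, adjusted p = 4.88e-07, edgeR), though with a minimum fold of 1.2 the call was narrow (adjusted p = 0.0484, glmTreat of edgeR). Pccb, its partner subunit, was at 17.2, 15.7 and 16.5 CPM with vehicle and 14.1, 14.6 and 14.1 CPM with palmitate. Those groups were also apart, and the fall was by 0.20 on the log2 scale (adjusted p = 0.00575, edgeR), not called by DESeq2 (adjusted p = 0.0547). Mcee, the epimerase that follows, was at 6.67 ± 0.903 and 6.19 ± 0.867 CPM (SD, n = 3 libraries each) and did not pass the test.

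The dehydrogenases of single amino acids differed from each other. Acadsb, which serves isoleucine, fell by 0.24 on the log2 scale from 53.1 ± 1.54 to 45.0 ± 1.19 CPM (SD, n = 3 libraries each, adjusted p = 9.06e-08, edgeR). Ivd, which serves leucine, rose by 0.25 from 49.8 ± 1.23 to 59.2 ± 0.443 CPM (SD, n = 3 libraries each, adjusted p = 6.39e-09, edgeR). Acad8, which serves valine, had a log2 fold change of -0.03 (95% interval -0.14 to 0.08). Among the others, Hsd17b10 of isoleucine breakdown had -0.07 and Hibch of valine breakdown -0.01, and neither passed the test. Auh, the methylglutaconyl-CoA hydratase of leucine breakdown, rose by 0.20. Its call was lost with DESeq2 (adjusted p = 0.158) and on leaving out replicate 1 or 3 of either group (adjusted p = 0.0682 to 0.168).

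Ketone genes showed high Oxct1 and almost no Bdh1. Oxct1 (ENSMUSG00000022186.15), the transferase that lets cells use ketone bodies, was at 230.9, 226.0 and 223 CPM with vehicle and 217, 219 and 212 CPM with palmitate. Its groups did not overlap, but the difference was small, a fall by 0.07 on the log2 scale (SE 0.0206, adjusted p = 0.00313, edgeR). Acat1, the acetoacetyl-CoA thiolase, was at 48.2, 48.8 and 49.7 CPM with vehicle and 47.0, 48.0 and 49.3 CPM with palmitate. Its groups overlapped, and the 95% interval of its log2 fold change was -0.10 to 0.05. Bdh1, the hydroxybutyrate dehydrogenase, had 0, 2 and 0 counts with vehicle and 0, 2 and 1 with palmitate, at or under the limit that 3 counts set in each library.

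Arranged by the chain length of the substrate, 4 of 7 tested long-chain members rose and 1 fell, with a median log2 fold change of 0.23. Of 6 medium and short-chain members 1 rose and 2 fell (median -0.05), and of 9 branched or odd-chain members 2 rose and 3 fell (median -0.07). Of the 12 tested members outside these classes 7 rose and 2 fell (median 0.19). The shares were 57.1% higher and 14.3% lower for long chains, 16.7% and 33.3% for medium and short, and 22.2% and 33.3% for branched or odd. For the remaining members the shares were 58.3% and 16.7%, close to those for long chains. Among all tested genes they were 27.4% and 25.4%, and with so few members per list no difference between lists was tested. The within-library ratio of Acadl to Acads was 0.77, 0.82 and 0.89 (log2 scale) with vehicle and 1.46, 1.43 and 1.45 with palmitate, a difference of 0.62. That of Acadvl to Acadm was -0.64, -0.61 and -0.69 with vehicle and 0.07, 0.05 and 0.04 with palmitate, a difference of 0.70. Neither ratio overlapped between the groups. An exact permutation test over samples gave each p = 0.1, the smallest that 3 against 3 allows (two-sided, adjusted p = 0.167 over 5 ratios). Each ratio set a gene called higher over one that was not, and was chosen with earlier results known. The lack of overlap is therefore no separate evidence on chain length.

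Ratios between subunits of a complex were compared in the same way. Hadha exceeded Hadhb by 2.55 ± 0.0326 on the log2 scale with vehicle and by 2.59 ± 0.0538 with palmitate, with overlapping groups (SD, n = 3 libraries each, exact permutation p = 0.3). Etfa exceeded Etfb by 3.86 ± 0.0922 and 3.91 ± 0.189, also overlapping (SD, n = 3 libraries each, exact permutation p = 0.7). Pcca over Pccb was -0.01 ± 0.0893 with vehicle and -0.20 ± 0.0471 with palmitate, without overlap (SD, n = 3 libraries each, exact permutation p = 0.1, adjusted p = 0.167). The ratios with Hadhb and Etfb rest on the uncertain counts of those genes.

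**Figure D3:**
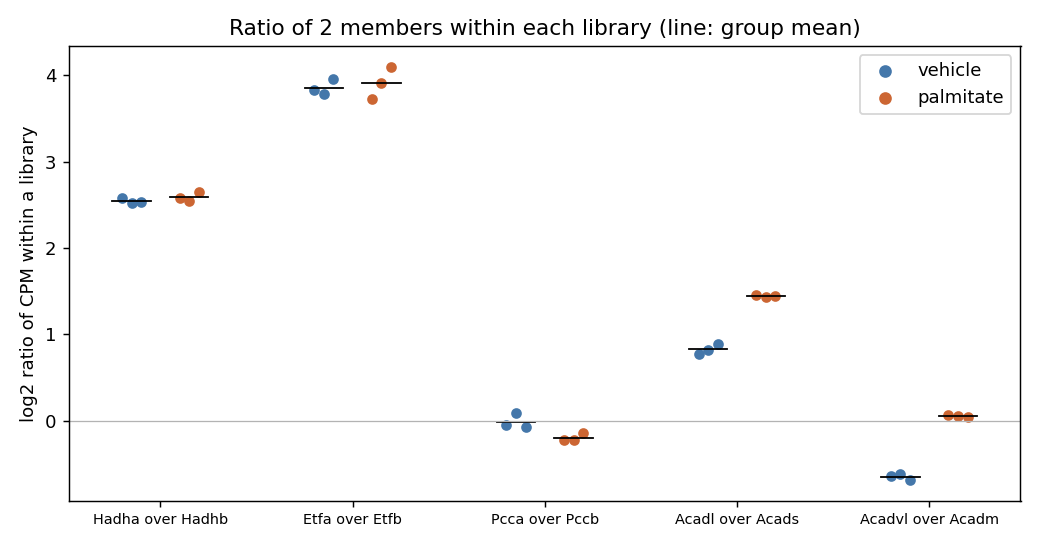
Log2 ratio of the CPM of 2 members within each library, with points for the 3 vehicle and 3 palmitate libraries and lines for group means. Acadl over Acads and Acadvl over Acadm are higher in each palmitate library than in each vehicle library, by 0.62 and 0.70 on average, while Hadha over Hadhb and Etfa over Etfb overlap.

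Levels were compared between members per kb of the main transcript in Gencode vM21, an annotation older than the authors'. With vehicle the highest levels were those of Hadh at 72.1, Oxct1 at 64.3, Etfa at 58.4 and Cpt1a at 50.5 CPM per kb. With palmitate Cpt1a came first at 79.2 CPM per kb, ahead of Hadh at 70.3, Etfa at 66.0, Acadl at 62.4 and Oxct1 at 61.2. Acadl stood eighth with vehicle, at 42.5 CPM per kb, in a run of near neighbours with Hadha at 45.7, Echs1 at 45.6, Eci1 at 45.1 and Hsd17b10 at 42.4. Cpt1a exceeded the other CPT1 genes by far, as Cpt1c was at 2.81 and Cpt1b at 0.0926 CPM per kb with vehicle. The lowest tested member was Acad12, at 0.317 CPM per kb.

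**Figure D4:**
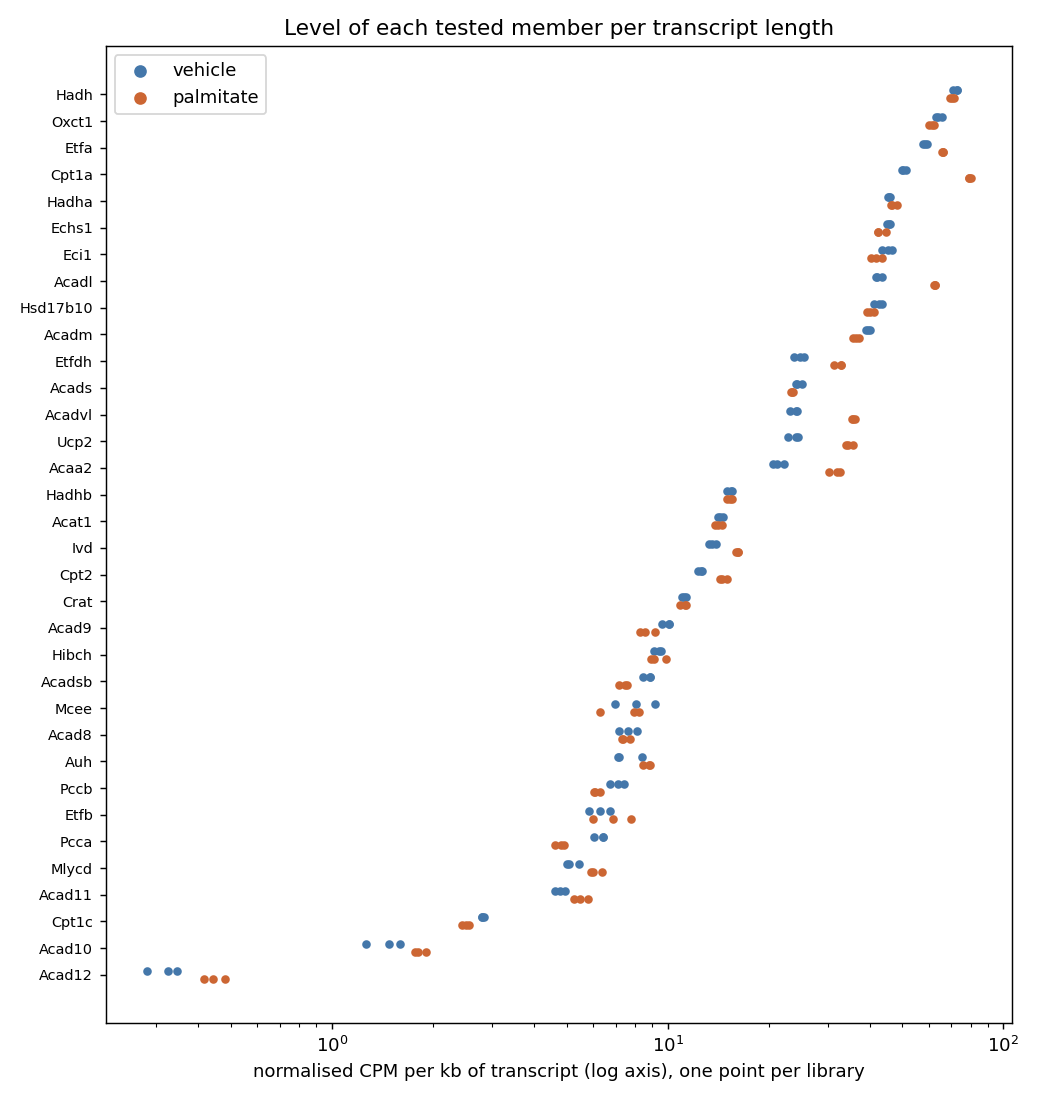
Normalised CPM per kb of transcript on a log axis, with a point for each library, for the 34 tested members in order of their level with vehicle. The order is led by Hadh with vehicle, and Cpt1a passes it with palmitate at 79.2 CPM per kb.

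Of further genes that serve carnitine, oxidation and ketone bodies, 19 of 25 in the table were tested, and 10 were higher and 3 lower (52.6% and 15.8%). Among all tested genes these shares were 27.4% and 25.4%. The 3 lower genes were Slc22a4, Etfbkmt and Slc25a32, with log2 fold changes of -0.28, -0.27 and -0.12. The mitochondrial carnitine carrier gene Slc25a20, which works between CPT1 and CPT2, rose from 17.2 ± 0.726 to 29.0 ± 1.04 CPM (SD, n = 3 libraries each, log2 fold change 0.75, adjusted p = 1.29e-21, edgeR). Aldh9a1, of carnitine synthesis, rose by 0.40 on the log2 scale. Acacb, whose product malonyl-CoA inhibits CPT1, rose by 0.81.

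The authors' deposited gene set table gives the KEGG set of fatty acid degradation a normalised enrichment score of 1.67, with a q-value of 0.093. Of the 14 leading genes that the authors' deposited table lists for this set, 4 are members: Cpt1a, Acadl, Acadvl and Acaa2. For valine, leucine and isoleucine degradation the authors' deposited table gives 1.09 (q-value 0.629), for propanoate metabolism 1.28 (q-value 0.523), and for butanoate metabolism, which includes ketone steps, -0.79 (q-value 0.814).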

How the data were processed

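The authors deposited raw counts per gene for 6 libraries, prepared with a stranded kit after polyA selection, per the labels' protocols. STAR 2.6.1, FastQC 0.11.8, DESeq2 1.34.0, HTSeq and build mm39 are named, without roles, per the submitters' processing notes. The authors' deposited gene table gives log2 fold changes, p-values and q-values, together with a score, −log10 of the p-value with the sign of the change. Normalised enrichment scores and q-values of gene sets come from another deposited table.

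The test was that of edgeR 4.0.16 (R 4.3.3, robust glmQLFit, glmQLFTest) after TMM normalisation and filterByExpr (minimum count 10), with Benjamini-Hochberg adjustment over 14987 genes and a threshold of 0.05. CPM values are TMM-normalised. The standard error is the log2 fold change over the root of F. The members, the lists and the 5 ratios were chosen with earlier results of these data known. Values per library are given for a panel of 21 members and any other called member with a log2 change of at least 0.5, partner genes for up to 3 called by smallest p. Lengths and shared 50-base stretches come from the longest principal coding transcript in Gencode vM21 (GRCm38), matched by identifier for 37 members, and promoters from RefSeq. On simulated counts for this comparison, in a step run on 14808 genes, 64% of genes changed 1.2-fold and 78% at 1.5-fold were called. Only 50 genes were changed at each of these folds, far fewer than were called in the data, and the noise was set, not fitted. These rates therefore need not hold for the data. Within a group, chi-square divided by degrees of freedom was 1.202 to 1.379 for a pair of libraries, so none was taken for a copy. Alternatives were DESeq2 1.42.0, limma-voom (limma 3.58.1), median-of-ratios factors, no filter, glmTreat, thinning, the replicate number as a block, and leaving out each library. Figures used matplotlib 3.10.9 in Python 3.11.15.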

Additional observations from a re-analysis of the deposited data

How the results depend on the processing

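With a minimum fold of 1.2 (glmTreat), 2275 genes were called in place of 7915, and 6 members were higher and 1 lower in place of 14 and 8. DESeq2 called 5899 genes and 5 members lower. Leaving out single libraries left 12 to 14 members called higher and 6 to 7 lower, and 7260 to 7406 genes in all. With the replicate number as a block, 7933 genes, 14 members higher and 8 lower were called, and no member's call changed. Same-numbered libraries did not deviate together (correlations -0.004, 0.008 and 0.007). Libraries of a group differed little beyond counting error, so this check cannot show whether the number pairs cultures. Cpt1c was called only after thinning to the shallowest library. The signs of 5 members near 0, none of them called, turned. Crat was positive with no count filter (0.0051), after thinning (0.0012) and without vehicle replicate 2 (0.0036) or palmitate replicate 2 (0.0149), with a range over omissions of -0.0123 to 0.0149. Hadhb was positive with no filter (0.0068), after thinning (0.0068) and without vehicle replicate 2 (0.0069) or palmitate replicate 3 (0.0119), with a range of -0.0155 to 0.0119. Acad8 was positive after thinning (0.0035), and over omissions it ran from -0.0734 to 0.0131, Hibch from -0.0549 to 0.0244 and Mcee from -0.1976 to 0.0146. The cause was not tested. Depth limits Bdh1 and Cpt1b, and Decr1 was called with no filter (2.20).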

Other observations

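Genes that begin the breakdown of branched-chain amino acids moved in opposite directions. The cytosolic aminotransferase gene Bcat1 rose from 1.25 ± 0.159 to 4.66 ± 0.211 CPM (SD, n = 3 libraries each, log2 fold change 1.90, adjusted p = 1.70e-17, edgeR), and the mitochondrial Bcat2 fell from 68.4 ± 0.789 to 47.7 ± 1.15 CPM (SD, n = 3 libraries each, log2 fold change -0.52, adjusted p = 4.29e-23, edgeR). Of 17 tested partners in branched-chain and methylmalonyl steps 4 rose, 5 fell and 8 did not pass the test, with a median log2 fold change of 0.0061. The shares, 23.5% and 29.4%, lie near the 27.4% and 25.4% of all tested genes. Dld, the dehydrogenase subunit shared by several ketoacid complexes, rose by 0.27 on the log2 scale.

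Of 12 tested genes among regulators of fatty acid oxidation, 3 rose, 2 fell and 7 did not pass the test, so 41.7% were called, against 52.8% of all tested genes. Ppargc1a, a coactivator of oxidative genes, rose from 22.7 ± 1.37 to 33.1 ± 0.750 CPM (SD, n = 3 libraries each, log2 fold change 0.55, adjusted p = 2.34e-16, edgeR). Pdk4, a kinase that restrains pyruvate oxidation, rose by 0.70 on the log2 scale, and Rxra, a partner receptor of the PPARs, fell by 0.15. Ppara, named here after its values were seen, was at 0.9901 ± 0.421 and 0.904 ± 0.264 CPM (SD, n = 3 libraries each) and did not pass the test. The other PPAR genes, also named after their values were seen, were higher in level and moved slightly in opposite directions. Ppard, at 108 CPM with vehicle, fell by 0.11 on the log2 scale (adjusted p = 0.000327, edgeR). Pparg, at 17.5 CPM with vehicle, rose by 0.15 (adjusted p = 0.0231, edgeR).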
